A study of Mus musculus with 27 samples.

Results

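The genes described here encode the nuclear subunits of complexes II to V of the mitochondrial respiratory chain, with cytochrome c. They were taken from the mRNA table by symbol: Sdha, Sdhb, Sdhc and Sdhd, all symbols that begin with Uqcr, Cox4, Cox5, Cox6, Cox7, Cox8 or Atp5, and Cyc1 and Cycs. The rule found 46 of the 8987 genes in the table, of which 4 belong to complex II, 9 to complex III, 1 is cytochrome c, 15 belong to complex IV and 17 to complex V. Of these, Cox7a2l is known as an assembly factor of respiratory supercomplexes and not as a subunit of the complex itself, and Atp5s and Atp5sl match the prefix but are not core subunits of complex V. Cox6b2 and Cox8c, which encode testis forms, were not analysed here, and no symbol of a mitochondrially encoded subunit was matched in the table, so only the nuclear subunits of each complex are described.

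The study sequenced RNA of the left ventricle of adult FVB mice, wild type (WT) or carrying caPI3Kalpha, a form of the growth-signalling kinase PI3Kalpha that the series describes as enhanced signalling. Ventricles were collected 7 days after surgery, either sham or TAC, the aortic constriction used to load the left ventricle with pressure. The mRNA libraries number 4 from WT sham, 3 from WT TAC, 2 from caPI3Kalpha sham and 2 from caPI3Kalpha TAC mice, 1 animal each, and are named here by group and animal number. The labels do not give the promoter that drives the transgene, the sex or the age in weeks. The animal number of the WT sham 15 mRNA library differs between its title and its source name; the table's column carries that of the title.

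Complex II (succinate dehydrogenase) passes electrons from the citric acid cycle to ubiquinone, complex III (cytochrome bc1) passes them on to cytochrome c, and complex IV (cytochrome c oxidase) hands them to oxygen. Complexes III and IV pump protons, and complex V, ATP synthase, uses the resulting gradient to make ATP. Heart muscle depends on this chain for nearly all of its ATP, and several complex IV subunits have a form made mainly in heart and skeletal muscle beside a form made in most tissues.

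Levels are RPKM, reads scaled by transcript length and by the library's mapped reads, as deposited. The listed genes summed to between 202916.4 and 212396.3 RPKM per library, and the read depth is unknown. Pik3ca, the gene of the transgene's catalytic subunit, lay between 5.3 and 8.9 RPKM in the 7 WT libraries and between 101.3 and 195 in the 4 caPI3Kalpha libraries, which matches the genotype labels. Heart muscle genes were abundant in every library: the 10 cardiomyocyte markers, of which Cox7a1, Cox6a2 and Cox8b are themselves described here, summed to between 16736.8 and 22924.6 RPKM. Atrial markers (Myl7, Sln and Myl4) summed to at most 12 RPKM in 10 libraries and to 54.9 in caPI3Kalpha TAC 11, which also had the highest sum of red cell markers (761.4 against 12.1 to 256.5 in the others).

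The libraries fell into 2 sets that the labels do not name. On the first principal component of all genes, which held 52.0% of the variance, WT sham 6, WT TAC 1 and the 4 caPI3Kalpha libraries lay on one side (the first set, 6 libraries) and WT sham 7, 13 and 15 with WT TAC 17 and 19 on the other (the second set, 5 libraries). All caPI3Kalpha libraries are in the first set, so set and genotype are confounded except through WT sham 6 and WT TAC 1. Among the 46 genes, 12 were higher in every library of the first set than in any of the second (14.4% of all genes were) and 9 were lower in every one (18.2% of all genes), while 25 overlapped. Cycs is an example, with 29.5 RPKM in WT sham 6 against 83.5, 72.4 and 75.4 in WT sham 7, 13 and 15. Atp5j, coupling factor 6 of ATP synthase, showed the opposite with 68.1 against 13, 14.8 and 17.4. Over the 46 genes the level in WT sham 6 ran from 0.364 (Uqcrb) to 4.52 times (Atp5j) the mean of the other WT sham libraries. The plot of set differences shows that WT TAC 1 departed from WT TAC 17 and 19 in much the same way, gene by gene. Counts that rest on both sets are therefore also given from a fit that includes the set (the set term), or within 1 set. The set term was estimated from the same libraries, and what the sets are was not tested.

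**Figure D1:**
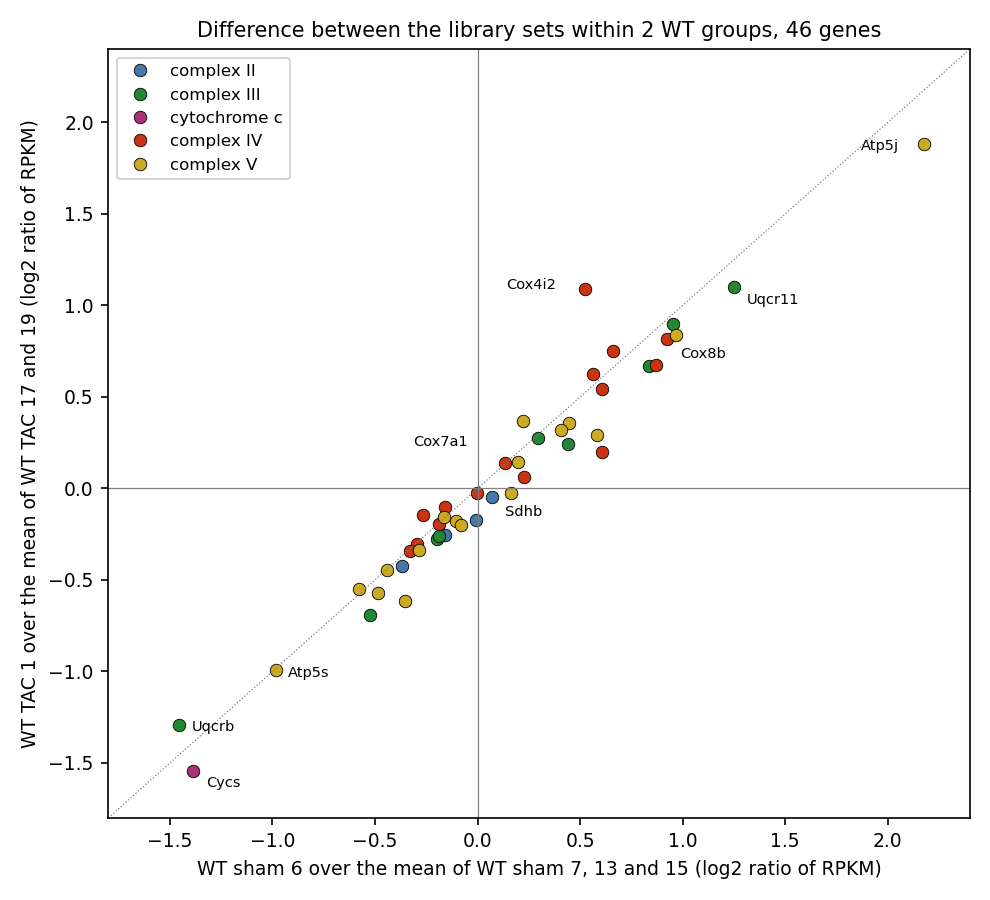
Each point is 1 of the 46 genes, coloured by complex. The horizontal axis gives the log2 ratio of RPKM in WT sham 6 to the mean of WT sham 7, 13 and 15, the vertical axis the log2 ratio of WT TAC 1 to the mean of WT TAC 17 and 19, and the dotted line marks equal ratios. Most points lie near the line, from Uqcrb and Cycs at the lower left to Atp5j at the upper right, while Sdhb and Cox7a1 lie near 0.

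In the unloaded WT heart the subunit genes were among the most abundant messages. Together they took 7.50% to 7.78% of the RPKM of the table in the 4 WT sham libraries, between 15329.2 and 16406.5 RPKM. RPKM is scaled by transcript length, so levels of different genes are set side by side, although their relative levels differed between the library sets. The catalytic beta and alpha subunits of ATP synthase stood highest, Atp5b at 1690.2 ± 85.6 RPKM (SD, n = 4) and Atp5a1 at 1304.6 ± 59.6, followed by Atp5g3, one of 3 genes for the membrane-ring subunit c, at 1231 ± 167. In complex IV the highest was Cox4i1, the common form of subunit 4, at 807.1 ± 72.3, and the lowest Cox4i2, its lung-enriched form, at 3.62 ± 0.87, the lowest of all 46. In complex III the Rieske iron-sulfur protein gene Uqcrfs1 had the highest mean, 434.2 ± 30.0, although Cyc1 (405.8) and Uqcrc1 (400.8) exceeded it in WT sham 6 (391.6) and Uqcrc2 (460.9) in WT sham 15 (452.3), and Uqcrb lay at 309.8 ± 118, its wide SD reflecting WT sham 6 at 134.2. The lowest mean in complex III was that of Uqcr11 at 161.1 ± 82.8, while in WT sham 6 Uqcrb was the lowest. In complex II, Sdhb, the iron-sulfur subunit, stood at 355.6 ± 11.0, above Sdha (307.4 ± 19.8), Sdhd (262.3 ± 31.7) and Sdhc (220.7 ± 9.27). The 4 Sdhb values lay above all Sdha values, whereas those of Sdhd overlapped with those of both Sdha and Sdhc. Atp5sl was lowest in the complex V group at 9.55 ± 2.10.

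For subunits 6a, 7a and 8 the muscle form was the more abundant one. Cox6a2 exceeded Cox6a1, Cox7a1 exceeded Cox7a2 and Cox8b exceeded Cox8a in each of the 11 libraries. In WT sham the means were 598.3 ± 207 and 53.8 ± 12 RPKM for Cox6a2 and Cox6a1, 571.6 ± 51.7 and 160.1 ± 18.4 for Cox7a1 and Cox7a2, and 343.7 ± 128 and 64.8 ± 16.8 for Cox8b and Cox8a (n = 4). Cox6b1, the only subunit 6b gene analysed, stood at 442.2 ± 8.66. Of the subunit c genes, Atp5g1 lay at 195.5 ± 33.6 and Atp5g2 at 37.0 ± 5.39.

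The promoters of 5 of the genes are shown as examples, which need not be typical of the others. Each is the 250 bases before the annotated start, 5′ to 3′ on the gene's own strand, from RefSeq on GRCm38.p6. The deposited values were made on mm9, so these positions belong to the RefSeq build alone. Cox7a1 (chr7:30183921-30184170, plus strand) and Cox8b (chr7:140900447-140900696, minus strand) are the muscle forms with the largest differences after load, Cox7a2 (chr9:79759854-79760103, minus strand) is the common counterpart of Cox7a1, and Sdha (chr13:74350241-74350490, minus strand) and Atp5g3 (chr2:73911327-73911576, minus strand) are abundant genes of complexes II and V. Capitals mark matches to the motifs searched on both strands: GCGCANGCG (NRF1), CCGGAAG (GABPA), TCAAGGTCA and its part AAGGTCA (the oestrogen-related receptors), AAGATGGCG (YY1) and GGGCGG (SP1).
Cox7a1: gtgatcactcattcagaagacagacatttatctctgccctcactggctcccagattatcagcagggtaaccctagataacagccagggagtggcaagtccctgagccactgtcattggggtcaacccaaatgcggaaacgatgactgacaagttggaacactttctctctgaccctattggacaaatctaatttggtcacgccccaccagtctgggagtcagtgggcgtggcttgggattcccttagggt
Cox8b: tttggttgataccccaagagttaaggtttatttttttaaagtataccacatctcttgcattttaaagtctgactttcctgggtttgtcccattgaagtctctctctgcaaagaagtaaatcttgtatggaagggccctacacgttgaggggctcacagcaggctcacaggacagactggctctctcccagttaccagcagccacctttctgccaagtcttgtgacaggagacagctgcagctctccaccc
Cox7a2: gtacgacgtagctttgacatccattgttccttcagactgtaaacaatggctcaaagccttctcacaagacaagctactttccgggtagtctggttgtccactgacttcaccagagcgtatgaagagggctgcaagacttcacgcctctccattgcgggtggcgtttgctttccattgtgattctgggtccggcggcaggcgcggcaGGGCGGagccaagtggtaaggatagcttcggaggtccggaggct
Sdha: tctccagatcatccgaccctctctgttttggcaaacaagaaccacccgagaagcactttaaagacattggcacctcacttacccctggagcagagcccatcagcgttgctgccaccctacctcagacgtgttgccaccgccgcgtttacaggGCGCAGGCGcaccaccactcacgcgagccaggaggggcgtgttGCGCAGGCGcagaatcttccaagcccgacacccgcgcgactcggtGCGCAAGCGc
Atp5g3: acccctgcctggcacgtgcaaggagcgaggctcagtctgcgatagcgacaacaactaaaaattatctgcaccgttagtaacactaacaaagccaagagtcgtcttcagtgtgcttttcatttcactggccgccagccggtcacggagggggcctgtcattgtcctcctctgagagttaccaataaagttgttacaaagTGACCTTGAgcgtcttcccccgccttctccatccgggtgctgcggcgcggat

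The Sdha window held 3 matches to the NRF1 motif, the Atp5g3 window 1 to the longer receptor motif on the opposite strand and the Cox7a2 window 1 to the SP1 motif. None of the searched motifs was found in the Cox7a1 or Cox8b window. The same held for the 250 bases before Cox8a, the common counterpart of Cox8b, which are not shown. Over the 300 bases used for the counts below, Cox8a had a GABPA match. A RefSeq promoter was matched for 36 of the 46 genes, 40 promoters in all, searched over 300 bases that include 50 after the start. NRF1 and GABPA are known regulators of nuclear genes for mitochondrial proteins. The NRF1 motif stood in 13 of these 40 promoters (32.5%), against 6.25% of all 32851 promoters of this length, and the GABPA motif in 12 (30%), against 8.86%. The longer receptor motif stood in 2 (Sdhd and Atp5g3; 5%, against 0.423%), its shorter part, which it contains, in 5 (12.5%, against 4.72%) and the YY1 motif in 4 (10%, against 1.40%). The SP1 motif stood in 13 (32.5%), against 35.7%. These are matches of letters and not measured sites.

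The first comparison asks what 7 days of pressure load does to these genes in WT hearts. In limma on log2(RPKM + 0.5), 9 of the 46 genes were lower in WT TAC than in WT sham at a Benjamini-Hochberg adjusted p under 0.05 over all genes and 0 were higher, where 2.85% of all genes were lower and 13.6% higher. The 9 were Sdha, Sdhb, Sdhc, Uqcrc1, Uqcrfs1, Cox7a1, Atp5a1, Atp5b and Atp5o. Of the 46 log2 changes 45 were below 0, the exception being Atp5j at 0.05 (SE 0.57), and their median was -0.27, while the median of all genes was 0.17. That shift of all genes is removed by centring each library on its median: the median of all genes then stood at -0.02, that of the 46 at -0.45, all 46 were below 0, Atp5j included, and 21 were called, all lower (6.79% of all genes were lower and 6.24% higher). All genes called split into 1225 higher and 256 lower as deposited, 561 and 610 when centred and 486 and 439 after quantile normalization, where 3 of the 46 were called (4.88% of all genes lower, 5.41% higher). After quantile normalization the median of the 46 was -0.22 and 45 were below 0; of the 9 genes above, 2 stayed called and 7 did not.

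With the set term in the model, 33 of the 46 genes were lower and 0 higher (9.01% of all genes were lower, 33.1% higher), with a median of -0.28 and all 46 below 0. These 33 included all 9 called without it. By complex they were 4 of 4 in complex II, 7 of 9 in complex III, Cycs, 9 of 15 in complex IV and 12 of 17 in complex V. Without the set term the counts were 3, 2, 0, 1 and 3. Within the second set alone 27 were lower and 0 higher (7% and 25.6% of all genes tested there). The first set holds 1 WT sham and 1 WT TAC library, so a fit of it alone measures no spread among WT animals. Its log2 changes had a median of -0.32, with 45 of the 46 below 0. Leaving out 1 library at a time gave between 4 and 15 of the 46. The 4 came without WT sham 15 (145 of all genes lower) and the 15 without WT sham 6 (394 lower).

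**Figure D2:**
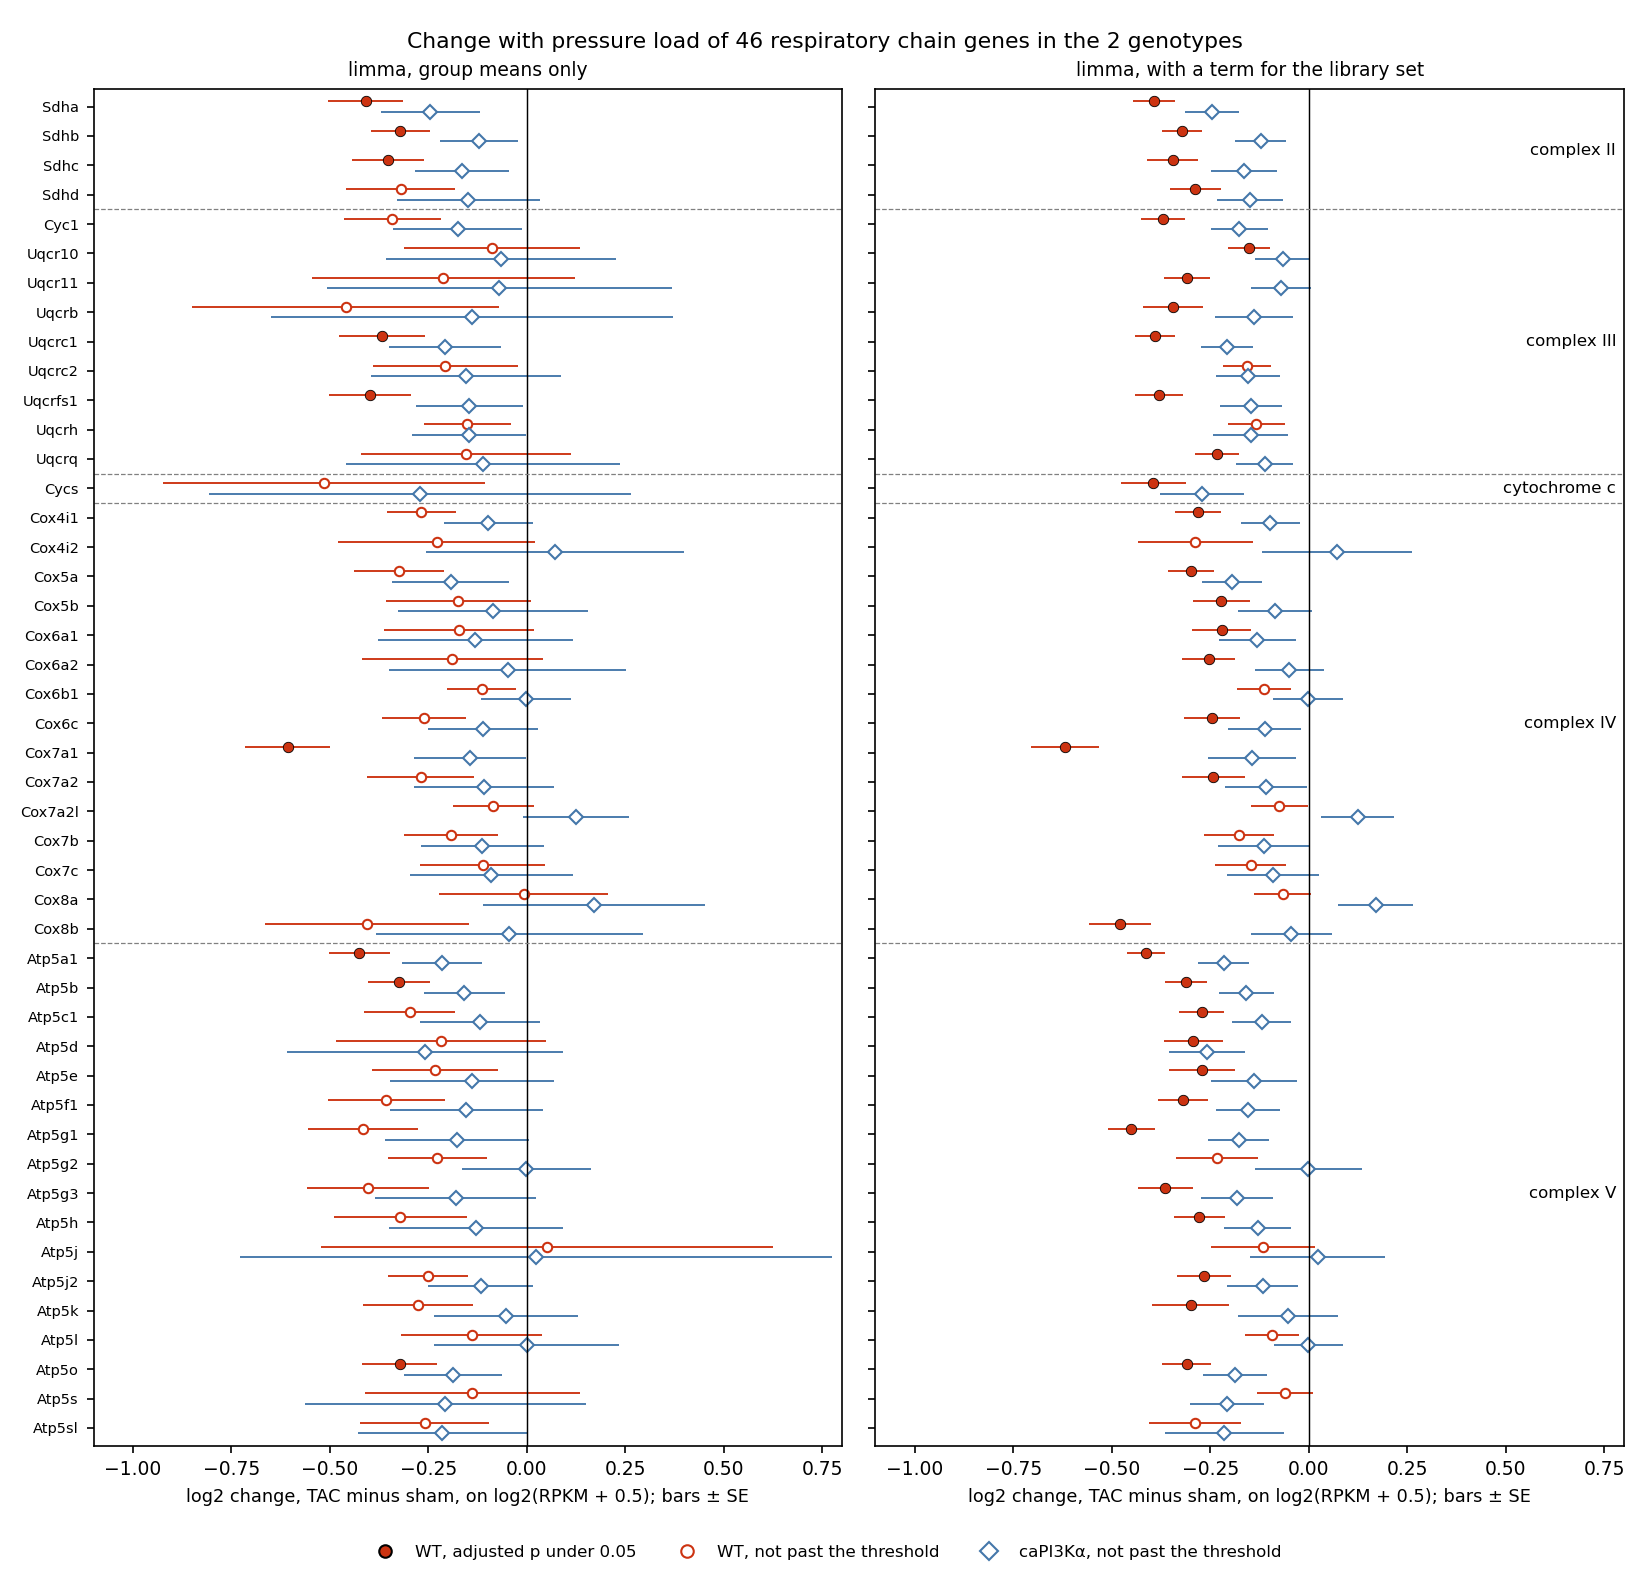
Log2 change from sham to TAC of the 46 genes, grouped by complex from top to bottom, in WT (circles) and caPI3Kalpha (diamonds), as fitted by limma with group means only (left) and with a term for the library set (right). Bars are ± SE and filled symbols passed an adjusted p of 0.05. Circles lie left of 0 for 45 genes on the left and for all 46 on the right, with Cox7a1 lowest on the right, and no caPI3Kalpha value passed.

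All 4 subunits of complex II lay lower after load. Sdha, the flavoprotein that holds the catalytic site, had 282.8, 304.3, 311.9 and 330.7 RPKM in WT sham 6, 7, 13 and 15 and 205.5, 241.4 and 248.5 in WT TAC 1, 17 and 19. Every TAC library was below every sham library, and Sdha fell to 0.753 of its sham level (-0.41 in log2, SE 0.10, adjusted p = 0.0158). Sdhb had 368.8, 349.5, 344 and 359.9 RPKM against 278.5, 292.6 and 282.3, again without overlap (-0.32, SE 0.08, adjusted p = 0.0160). Sdhc, a membrane anchor, had 219.8, 208.5, 223.9 and 230.6 against 159.5, 185.7 and 173.7 (-0.35, SE 0.09, adjusted p = 0.0238). Sdhd, the other anchor, had 215.4, 285.2, 272.1 and 276.4 against 171.8, 219.1 and 241.4. Here WT sham 6 lay below both second-set TAC libraries, and the change of -0.32 (SE 0.14) missed the threshold (adjusted p = 0.139) but passed with the set term (-0.29, adjusted p = 0.00456). Calls for Sdha held in all 11 fits that left out 1 library, for Sdhb in 10 and for Sdhc in 8.

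In complex III, 2 of 9 genes were called, Uqcrfs1 and Uqcrc1. Uqcrfs1 had 391.6, 457.6, 435.5 and 452.3 RPKM in WT sham, while WT TAC had 289.5, 333.4 and 367.4, with no overlap (-0.40, SE 0.10, adjusted p = 0.0249). Uqcrc1, core protein 1, had 400.8, 327, 316.9 and 337.4 against 302.9, 255 and 245.3 (-0.37, SE 0.11, adjusted p = 0.0420). Its 3 TAC values were below the 4 sham values, but the call held in only 2 of the 11 fits that left out 1 library, whereas that of Uqcrfs1 held in 6. Cyc1, the haem protein cytochrome c1, had 405.8, 298.4, 290.5 and 309.1 against 285.4, 237.7 and 243.8. It stood at -0.34 (SE 0.12, adjusted p = 0.0852) and passed with the set term (-0.37, adjusted p = 0.000505). Uqcrb, which differed widely between the sets, stood at -0.46 with an SE of 0.39, which the set term brought to -0.35 with an SE of 0.08 (adjusted p = 0.00427). The hinge protein gene Uqcrh (-0.15, SE 0.11, adjusted p = 0.381) and core protein 2, Uqcrc2 (-0.21, SE 0.18, adjusted p = 0.485), did not pass with the set term either (adjusted p = 0.161 and 0.0593).

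Cycs, the mobile carrier between complexes III and IV, had 29.5, 83.5, 72.4 and 75.4 RPKM in WT sham, while WT TAC had 20.7, 58.1 and 62.5. Load and sham values overlapped only across the sets: within the first set it was lower in WT TAC 1 than in WT sham 6, and within the second both TAC libraries were below the 3 sham libraries. Its change of -0.51 (SE 0.41, adjusted p = 0.427) became -0.39 (SE 0.08, adjusted p = 0.00304) with the set term. Processed copies of Cycs and of several small subunit genes exist in the mouse genome, and how reads shared with them were counted is not given in the sources used here.

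Complex IV was uneven. Cox7a1, the muscle form of subunit 7a, had 611.8, 527.9, 526 and 620.7 RPKM in WT sham, while WT TAC had 399, 343.7 and 381.1. The highest TAC library lay well below the lowest sham library, and Cox7a1 fell to 0.656 of its sham level (-0.61, SE 0.11, adjusted p = 0.00418), the lowest change of the 46. Its call held in all 11 fits that left out 1 library. Its counterpart Cox7a2 had 134.4, 163.7, 163.9 and 178.2 against 113.2, 157.6 and 128.9, which overlap (-0.27, SE 0.14, adjusted p = 0.199; with the set term -0.24, adjusted p = 0.0307). Cox7a2l stood at -0.09 (SE 0.10, adjusted p = 0.613).

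Cox8b, the muscle form of subunit 8, had 532.9 RPKM in WT sham 6 and 282.4, 252.9 and 306.6 in WT sham 7, 13 and 15, against 362 in WT TAC 1 and 219.4 and 192.1 in WT TAC 17 and 19. Within each set TAC was below sham without overlap. The pooled change of -0.41 (SE 0.26, adjusted p = 0.316) became -0.48 (SE 0.08, adjusted p = 0.000813) with the set term. Cox8a stood at -0.01 (SE 0.22, adjusted p = 0.987), and at -0.07 (adjusted p = 0.486) with the set term. The other complex IV members lay between these. Cox4i1 had 906.3, 758.9, 748.3 and 815 RPKM against 688.5, 668.3 and 648, without overlap (-0.27, SE 0.09, adjusted p = 0.0581; with the set term -0.28, adjusted p = 0.00298). Cox5a, which encodes subunit 5A, stood at -0.32 (SE 0.11, adjusted p = 0.0746) and Cox6c at -0.26 (SE 0.11, adjusted p = 0.120); both passed with the set term. Cox6a2 (-0.19, SE 0.23) and Cox6a1 (-0.17, SE 0.19) were alike, and passed with the set term at -0.25 (adjusted p = 0.0106) and -0.22 (adjusted p = 0.0332). The 6 complex IV genes that missed the threshold in both fits were Cox4i2, Cox6b1, Cox7a2l, Cox7b, Cox7c and Cox8a. Cox6b1 had 431.8 to 453 RPKM in WT sham against 403.6 to 414.7 after load, and stood at -0.11 (SE 0.09, adjusted p = 0.406).

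In complex V, 3 of 17 genes were called, Atp5a1, Atp5b and Atp5o. Atp5a1 had 1234.8, 1287.9, 1318.1 and 1377.6 RPKM in WT sham, while WT TAC had 893.3, 1032.5 and 992.1. All TAC values were lower (-0.42, SE 0.08, adjusted p = 0.00491), and the call held in all 11 fits that left out 1 library. Atp5b had 1620.9, 1647.7, 1678.6 and 1813.6 against 1230.2, 1438.5 and 1387.3 (-0.32, SE 0.08, adjusted p = 0.0187). Atp5o, the stalk protein OSCP, had 348.7, 394.7, 372.7 and 402.7 against 281.5, 306.6 and 321.9 (-0.32, SE 0.09, adjusted p = 0.0394), and held in 3 of the 11. The groups did not overlap for any of these 3 genes. Of the subunit c genes, Atp5g1 stood at -0.42 (SE 0.14, adjusted p = 0.0649), Atp5g3 at -0.40 (SE 0.16, adjusted p = 0.102) and Atp5g2 at -0.23 (SE 0.13, adjusted p = 0.241). Once the set was in the model, Atp5g1 (-0.45, adjusted p = 0.000221) and Atp5g3 (-0.36, adjusted p = 0.00196) passed and Atp5g2 did not (adjusted p = 0.0916). The other 4 complex V genes that missed the threshold in both fits were Atp5j, Atp5l, Atp5s and Atp5sl.

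**Figure D3:**
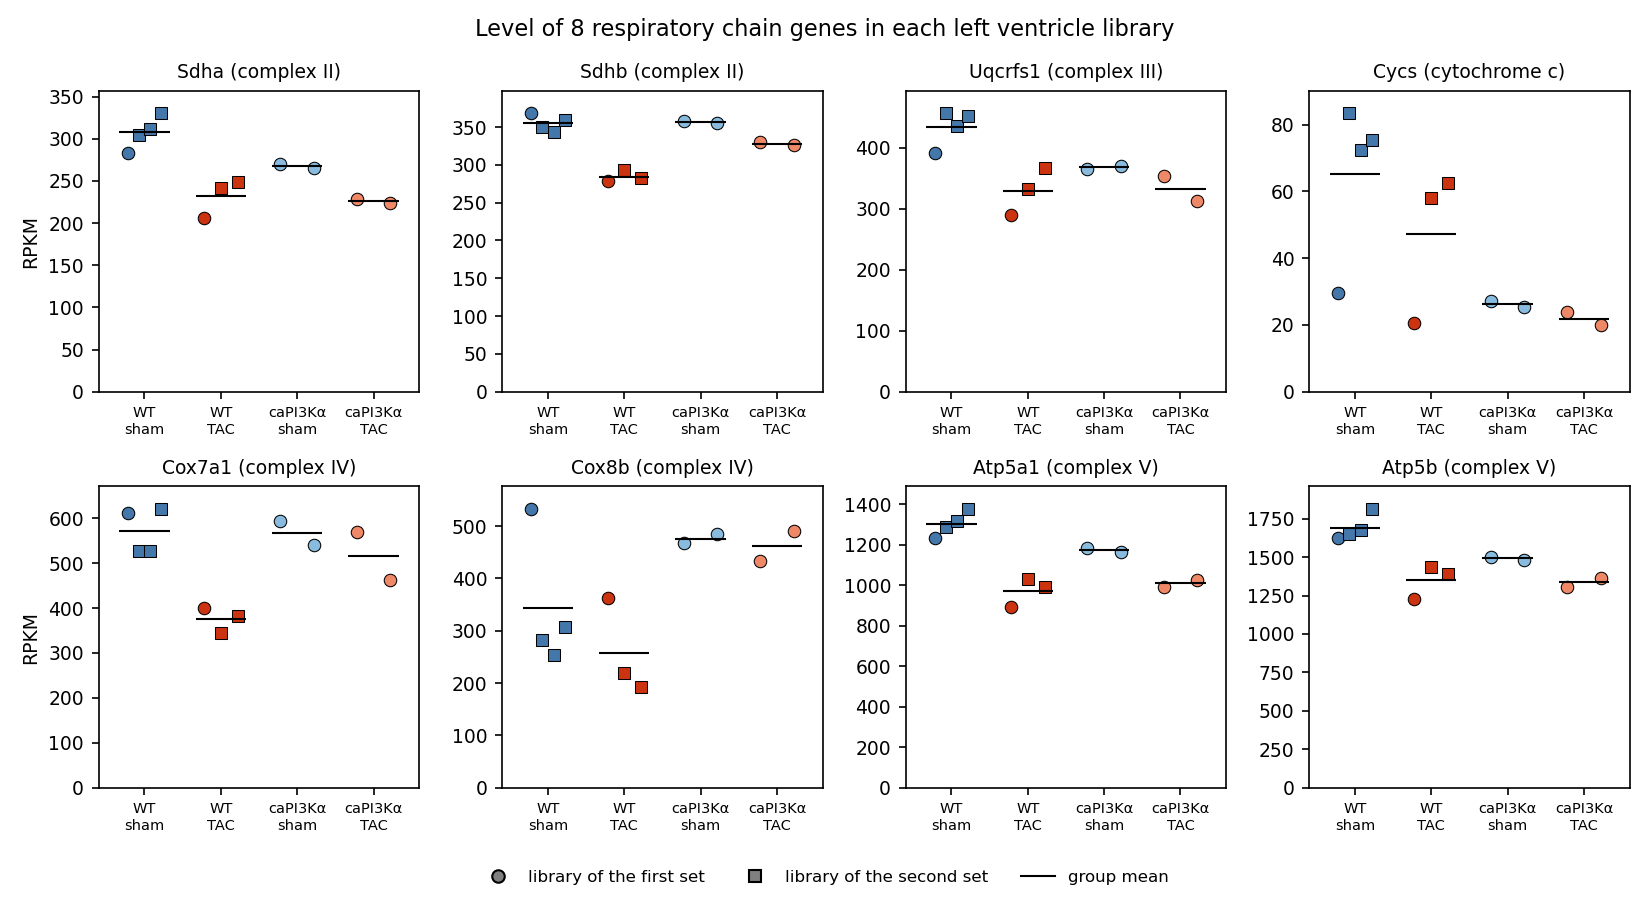
RPKM of 8 of the genes in each library, by group, with circles for the first library set, squares for the second and bars for group means. For Sdha, Sdhb, Uqcrfs1, Cox7a1, Atp5a1 and Atp5b the 3 WT TAC libraries lie below the 4 WT sham libraries, while for Cycs and Cox8b the circles stand apart from the squares and WT TAC lies below WT sham within each set.

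Overlap of the groups was also counted, without a model. All WT TAC libraries were below all WT sham libraries for 14 of the 46 genes (4.65% of all genes) and above them for 0 (18.9%). Within the second set this held for 40 of 46 (12.4% of all genes) and the reverse for 0 (45.5%), and in the first set WT TAC 1 was below WT sham 6 for 45 (31.8%) and above it for Cox4i2 (65.6%). The 2 sets give WT load changes from separate libraries. Their medians over the 46 genes were -0.32 in the first and -0.26 in the second. Cox7a1 and Cox8b were the lowest pair in both, at -0.62 and -0.56 in the first and -0.62 and -0.45 in the second. The place of Cox8b is narrow, with Atp5g3 at -0.55 in the first and Cox4i2 at -0.43 in the second. The first set compares 1 library with 1. Across the 46 genes Pearson's r of the 2 sets of changes was 0.49 (0.76 over all genes), a description only, since genes are not independent replicates.

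Summed by complex, the messages of each complex were below the WT sham range in every WT TAC library. Complex II summed to between 1086.8 and 1197.6 RPKM in WT sham, while WT TAC had 815.3, 938.8 and 945.9. For complex III the sums were 2712.3 to 2958.2 against 2329.5 to 2357.2, for complex IV 4341.6 to 5331.8 against 3753.7 to 4187.4 and for complex V 6738.9 to 7478.2 against 5084.3 to 5834.5. WT sham 6 and WT TAC 1 were highest for complex IV and lowest for complexes II and V within their groups. The 46 genes together took 6.03% to 6.20% of the table's RPKM in WT TAC, below the 7.50% to 7.78% of WT sham.

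**Figure D4:**
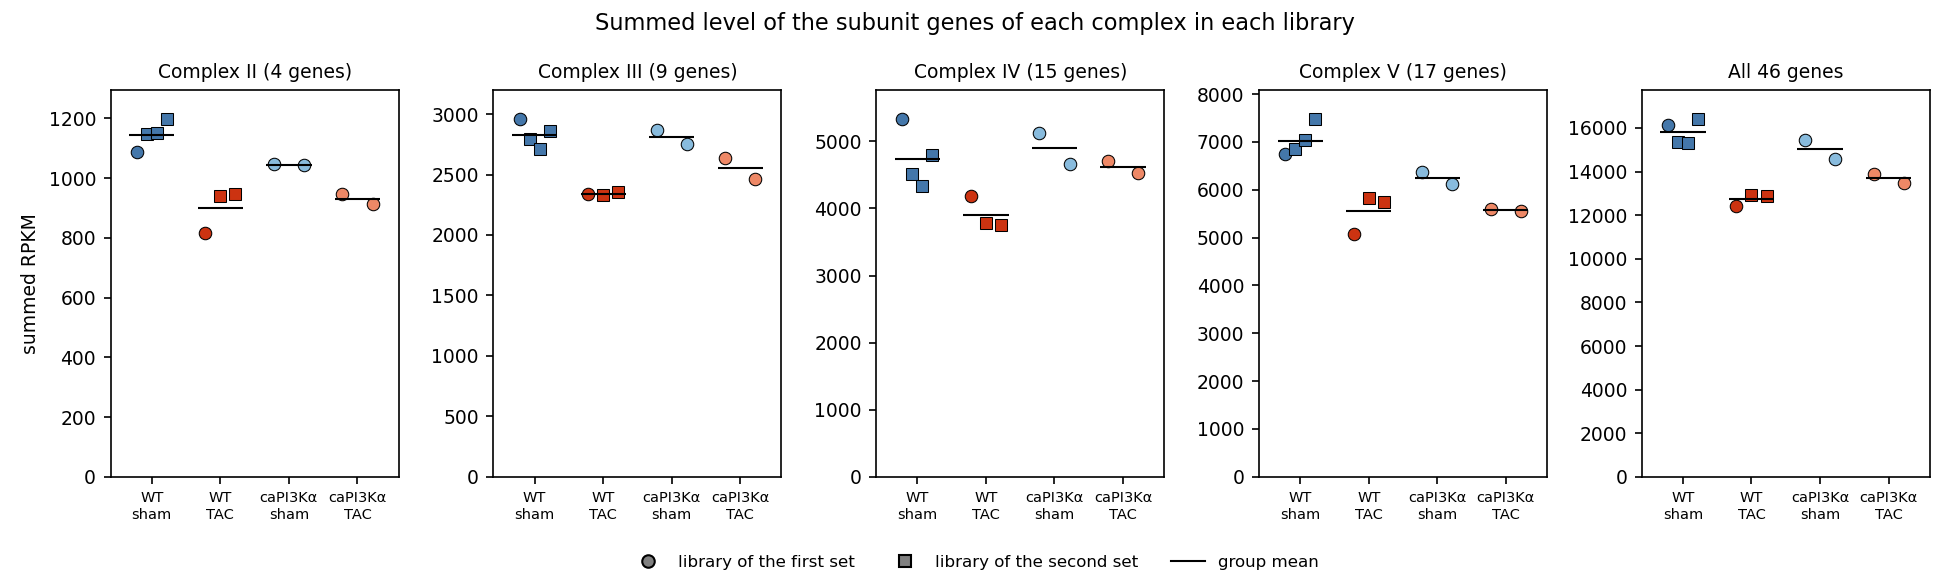
Summed RPKM of the genes of complexes II, III, IV and V and of all 46 genes, in each library by group, with circles for the first library set, squares for the second and bars for group means. All 3 WT TAC libraries lie below the 4 WT sham libraries in each panel. For all 46 genes the caPI3Kalpha TAC libraries (13901.8 and 13485.2) lie above the WT TAC libraries (12442.5 to 12943.8). They also do for complex III (2637.3 and 2463.4 against 2329.5 to 2357.2) and complex IV (4701.1 and 4534.3 against 3753.7 to 4187.4). The groups overlap for complex II (947.2 and 914.3 against 815.3 to 945.9) and complex V (5592.4 and 5553.3 against 5084.3 to 5834.5). This overlap comes from WT TAC 17 and 19. WT TAC 1, the WT TAC library of the same set, lies below both caPI3Kalpha TAC libraries there (815.3 and 5084.3).

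Other genes of mitochondrial energy supply are given from lists, and their counts are to be read against all genes, of which 2.85% were lower and 13.6% higher, or 9.01% and 33.1% with the set term. Complex I, the entry point for NADH, had 6 of 38 subunit genes lower and 0 higher, with a median of -0.28 (30 lower with the set term), close to the 46 genes here. Ndufb10 stood at -0.48 (adjusted p = 0.00334) and Ndufv3 at -0.49 (adjusted p = 0.00368). In the citric acid cycle, which supplies complex II, 8 of 14 genes were lower (median -0.41; 14 with the set term), among them citrate synthase Cs (-0.41, adjusted p = 0.00902) and Suclg1 (-0.41, adjusted p = 0.00955). In fatty acid oxidation 13 of 19 were lower (median -0.60; 19 with the set term), led by Acaa2 (-0.86, adjusted p = 0.000483) and Hadha (-0.61, adjusted p = 0.00148). Of the carriers and partners whose symbols lie outside the rule 2 of 10 were lower (6 with the set term): the ADP/ATP carrier Slc25a4 (-0.53, adjusted p = 0.0125) and the phosphate carrier Slc25a3 (-0.50, adjusted p = 0.00726). Whether these lists differ from the 46 genes was not tested.

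Assembly factors of complexes II to V had 2 of 27 genes lower and 1 higher, with a median of -0.16 (7 lower and 1 higher with the set term). The copper-handling factor Cox19 rose by 0.64 (SE 0.15, adjusted p = 0.0176), and Uqcc, a complex III assembly factor, fell by 0.35 (SE 0.09, adjusted p = 0.0296). Among 16 regulators of mitochondrial gene expression 1 was higher and 0 lower, where 13.6% of all genes were higher, and their median was -0.05. The 1 was Pprc1, a coactivator related to PGC-1, which went from 2.10 to 3.87 RPKM on average (0.76, adjusted p = 0.0123). Ppargc1a, which encodes PGC-1alpha, stood at -0.35 (SE 0.13, adjusted p = 0.0838) and passed with the set term (adjusted p = 0.0217), under which 3 were higher (Gabpb1, Pprc1 and Yy1) and 3 lower (Ppara, Ppargc1a and Tfb2m).

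Markers of some other cells moved with load in the same WT libraries. Of all genes 2.85% were lower and 13.6% higher, or 9.01% and 33.1% with the set term. Macrophage markers were higher for 8 of 9 genes (also 8 with the set term), with summed levels of 107.1 to 120.2 RPKM in WT sham, 244.8 to 282.4 in WT TAC and 94.3 to 148.3 in the caPI3Kalpha libraries. Lyz2 stood at 1.13 and Ctss at 1.57, and Cd163 was not analysed here. Fibroblast and matrix markers were higher for 6 of 9 (8 of 9 with the set term), with sums of 339.6 to 433.9 in WT sham and 968.7 to 1117.1 in WT TAC. Their sums were 369.9 and 319.9 in caPI3Kalpha sham and 438.9 and 474.2 in caPI3Kalpha TAC. Between these 2 groups 8 markers were above 0 and 1 below (median 0.50). Lum and Postn passed there with the set term (0.645% of all genes were higher) and none without it. Col3a1 stood at 2.85 and Postn at 3.92. Among endothelial markers 1 of 6 was higher in WT TAC (median 0.14) and among smooth muscle markers 1 of 3 (median -0.02). No red cell, atrial or fat marker was called. Heart muscle markers also lay mostly lower: 9 of 10 were below 0, with a median of -0.29, while that of the 46 was -0.27. Because 3 genes (Cox7a1, Cox6a2 and Cox8b) are in both lists, these medians are not independent of each other. Of these 10, Myh6 (-0.68, adjusted p = 0.00574) and Cox7a1 passed, and 7 did with the set term (Cox6a2, Cox7a1, Cox8b, Myh6, Myl2, Tnni3 and Tnnt2). In bulk tissue, fewer heart muscle cells and less RNA per cell cannot be told apart, and the part of these markers in the lower subunit levels was not tested.

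The next comparison asks what load does in caPI3Kalpha hearts, where all 4 libraries are in 1 set. No gene of the 46 was called in limma, nor was any of all genes (0% in each direction), with 2 libraries per group. At an unadjusted p under 0.05 there were 0 of the 46 and 454 of all 8987 genes. Adding the set term, which lowers the spread, left 0 called (0.389% of all genes were lower and 0.645% higher). With it, 11 of the 46 and 1224 of all 8987 genes had an unadjusted p under 0.05. The values were nevertheless mostly below 0, for 42 of 46, with a median of -0.13 against 0.01 for all genes. Both TAC libraries were below both sham libraries for 26 of the 46 (20% of all genes), and above them for Cox4i2 and Cox8a (22.4%). Sdha had 270.5 and 265.2 RPKM in caPI3Kalpha sham 5 and 8 and 228.1 and 223.7 in TAC 11 and 211 (-0.25, SE 0.13; SE 0.07 with the set term, adjusted p = 0.116). Atp5a1 had 1184.9 and 1163.1 against 993.1 and 1028.2 (-0.22, SE 0.10; adjusted p = 0.137 with the set term). Uqcrc1 had 395.4 and 385.4 against 345.9 and 329.7 (-0.21, SE 0.14). For these 3 genes the groups did not overlap.

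Cox7a1 overlapped instead, with 593 and 540.1 RPKM in caPI3Kalpha sham and 568.6 and 461.4 in caPI3Kalpha TAC (-0.14, SE 0.14). Cox8b did as well, with 467.9 and 484.1 against 433.8 and 491 (-0.04, SE 0.34). The lowest change was that of Cycs, 27.3 and 25.5 against 23.8 and 19.9 (-0.27, SE 0.54), and the highest that of Cox8a, 85.8 and 90 against 106.7 and 91.7 (0.17, SE 0.28). Per complex the medians were -0.16 for complex II, -0.15 for complex III, -0.09 for complex IV and -0.15 for complex V.

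Whether load acts differently in the genotypes was tested as the interaction, the caPI3Kalpha change minus the WT change. No gene of the 46 passed in limma, and of all genes 0.312% were lower and 0% higher. An unadjusted p under 0.05 was found for 1 of the 46 and for 926 of all 8987 genes. With the set term 0 passed (5.92% of all genes lower, 0.835% higher), and 8 of the 46 had an unadjusted p under 0.05, as had 2245 of all 8987 genes. The difference was above 0 for 43 of the 46 with a median of 0.16, while all genes had a median of -0.16. Cox7a1 had the smallest p of the group: 0.46 (SE 0.18, adjusted p = 0.371), and 0.48 (SE 0.14, adjusted p = 0.0642) with the set term. Cox8b stood at 0.36 (SE 0.43, adjusted p = 0.853), which the set term moved to 0.43 (SE 0.13, adjusted p = 0.0649). Atp5a1 stood at 0.21 (SE 0.13, adjusted p = 0.650), Sdhb at 0.20 (SE 0.12, adjusted p = 0.656) and Uqcrfs1 at 0.25 (SE 0.17, adjusted p = 0.692). For no single gene did these fits show a change that differed between the genotypes. With the set term and centring together, which removes the unlike shift of all genes, 7 passed, all above 0 (1.96% of all genes lower, 2.31% higher).

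Compared directly after load, caPI3Kalpha hearts had no gene of the 46 past the threshold against WT (limma), where 5.78% of all genes were lower and 0.746% higher. At an unadjusted p under 0.05 there were 11 of the 46 and 2947 of all 8987 genes. With the set term 0 passed (7.74% of all genes lower, 1.26% higher), and 8 of the 46 had an unadjusted p under 0.05, as had 2433 of all genes. The median of the 46 was 0.18 and that of all genes -0.18. Centring called 1 gene in limma, Cox7a1 (0.62, SE 0.13, adjusted p = 0.0408), where 1.55% of all genes were lower and 1.45% higher. When centred, 25 of the 46 and 2426 of all genes had an unadjusted p under 0.05. Set term and centring together called 10, all higher (3.19% of all genes lower, 3.84% higher). Without WT TAC 1, 20 of the 46 were called (15 higher, 5 lower), as were 745 higher and 2524 lower of all genes. That fit has no WT TAC library of the first set, so genotype and set cannot be told apart in it. Cox7a1 had 568.6 and 461.4 RPKM in caPI3Kalpha TAC against 399, 343.7 and 381.1 in WT TAC, without overlap (0.45, SE 0.13, adjusted p = 0.0580; with the set term 0.36, adjusted p = 0.0819). Cox8b had 433.8 and 491 against 362, 219.4 and 192.1 (0.89, SE 0.31, adjusted p = 0.0884). The set term brought this to 0.31 (adjusted p = 0.0967). Sdhb had 329.7 and 325.8 against 278.5, 292.6 and 282.3 (0.20, SE 0.09, adjusted p = 0.144), and WT TAC 1 stood at 0.969 of the mean of WT TAC 17 and 19, against 1.76 for Cox8b. Both caPI3Kalpha TAC libraries were above all WT TAC libraries for 21 of the 46 (11.5% of all genes) and below them for 0 (36.2%). Against WT TAC 1 alone, the library of the same set, they were above for 34 (22.3%) and below for Cox4i2 and Cox6a1 (54.9%).

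Without load, caPI3Kalpha hearts had 0 of the 46 past the threshold against WT sham (limma), where 0% of all genes were lower and 0.0111% higher. At an unadjusted p under 0.05 there were 10 of the 46 and 1193 of all 8987 genes. The median was -0.02, the same as that of all genes. Changes ran from -1.18 (Cycs, SE 0.46) to 1.38 (Atp5j). With the set term Cycs stood at -0.11 (SE 0.11), the median was -0.08, 41 of 46 were below 0, and 0 passed. An unadjusted p under 0.05 was then found for 1 of the 46 and for 138 of all genes. Both caPI3Kalpha sham libraries were below all WT sham libraries for 10 genes (10.1% of all genes), among them Sdha, Atp5a1 and Atp5b, and above them for 0 (9.42%). Against WT sham 6 alone they were below for 29 (28.2%) and above for Cox7a2l and Atp5s (27.5%). Cox7a1 had 593 and 540.1 RPKM against 611.8, 527.9, 526 and 620.7, within the range of WT sham (-0.01, SE 0.12).

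Ratios of the muscle to the common form within a library do not depend on how libraries were scaled. The Cox7a1 to Cox7a2 ratio was 4.55, 3.22, 3.21 and 3.48 in WT sham 6, 7, 13 and 15 and 3.52, 2.18 and 2.96 in WT TAC 1, 17 and 19. The pooled groups overlap, but within each set the ratio was lower after TAC, with log2 differences of -0.37 in the first and -0.38 in the second. In caPI3Kalpha hearts it was 4.39 and 4.55 in sham and 4.62 and 4.12 in TAC, a log2 difference of -0.03 with overlap. The WT sham libraries had a Cox8b to Cox8a ratio of 5.96, 5.23, 4.67 and 4.98, and after TAC it was 4.07, 4.08 and 3.69, without overlap. In caPI3Kalpha hearts it was 5.45 and 5.38 in sham and 4.07 and 5.35 in TAC, so that 1 TAC library stood at the WT TAC level and the other beside sham. The Cox6a2 to Cox6a1 ratio overlapped between WT sham (9.93 to 12.8) and WT TAC (9.83 to 11.5). These ratios were not tested.

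**Figure D5:**
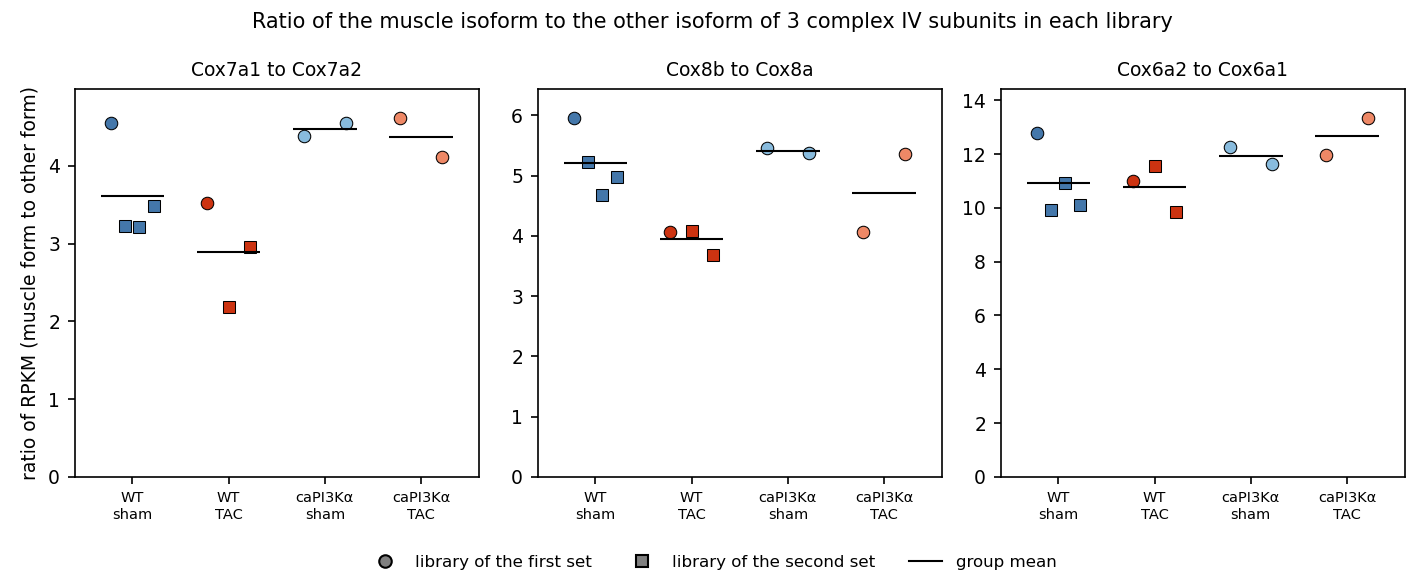
Ratio of RPKM of the muscle form to the common form for subunits 7a, 8 and 6a of complex IV in each library, by group, with circles for the first library set, squares for the second and bars for group means. Cox8b to Cox8a lies between 3.69 and 4.08 in WT TAC and between 4.67 and 5.96 in WT sham, and Cox6a2 to Cox6a1 shows no such separation.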

How the data were processed

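Poly-A selected mRNA of 11 left ventricles was sequenced single-end, per the labels' protocols. The authors deposited 1 table of RPKM values, printed to 1 decimal, per the file headers for genes that reach 3 RPKM. The submitters' processing notes list Partek 6.5, CASAVA 1.6, Bowtie and the build mm9 with no role; how reads were mapped and counted is not given in the sources. Of 9251 lines, 261 blank ones, 1 error mark and 2 repeats were dropped, and 0 columns matched no sample. The 16 small RNA libraries were not used.

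RPKM are not counts, and the depth is unknown. So log2(RPKM + 0.5) was tested with limma 3.58.1 (R 4.3.3; lmFit, eBayes with trend) in 1 model of 4 groups for 5 comparisons, two-sided, with Benjamini-Hochberg adjustment over 8987 genes, a threshold of 0.05 and no fold limit. Requiring a mean of 1 RPKM removed 0 genes. Fold changes on this scale understate those of low genes. The fit was also run on simulated data. The simulation had no library sets and added changes larger than the WT load changes of the 46 genes. Its outcome therefore does not carry over to them. Libraries were assigned to a set by the sign of their first principal component score. Alternatives were pseudocounts of 0.1 and 1, centring on library medians, quantile normalization, a minimum mean of 10 RPKM or none, the compared groups alone, a set term, each set alone, robust eBayes and leaving out each library. The set term joined with quantile normalization or centring was added after seeing the data. P-values measure the spread between these animals.

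Genes were named by a rule: complex II, Cyc1, Cycs and the isoform pairs, the smallest p-values and the highest and lowest levels in each complex, and 2 genes from each other list. The genes and lists were chosen with earlier results of these data known. Cox4i2 and Cox8a, Uqcrb and other genes that differ between sets, and the genes missing the threshold in both fits, were named after their values were seen.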

Additional observations from a re-analysis of the deposited data

Results flagged for a closer look

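In WT sham, the 1 group with 4 libraries, 10 of the 46 genes had 1 library far from the others by Dixon's gap test, which chance flags in about 1 in 20 groups. In all 10 that library was WT sham 6, the only WT sham library of the first set, highest for 7 genes and lowest for 3. Its high values were 405.8 RPKM for Cyc1, 266.4 for Uqcr10, 285.2 for Uqcr11, 386.5 for Uqcrq, 906.9 for Cox6a2, 250.6 for Atp5d and 68.1 for Atp5j. Its low values were 134.2 for Uqcrb, 95.4 for Atp5l and 6.3 for Atp5s. The share of all genes flagged in this way was not counted. Of all genes, 14.4% were higher and 18.2% lower in every library of the first set than in any of the second. The 10 flags therefore cannot be read as a trait of these 46 genes. None of the 9 genes called lower in WT TAC is among the 10 flagged genes. A library far from its group raises the SE of a gene (0.39 for Uqcrb and 0.33 for Uqcr11 in WT TAC against WT sham). Flagged genes were therefore less likely to be called, and the lack of overlap says little about the 9.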

How the results depend on the processing

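The call of 9 genes lower in WT TAC was 3 after quantile normalization, 4 with the 2 WT groups alone, 21 centred, 33 with the set term, 27 in the second set alone, 0 in the first set alone, 29 with set term and quantile normalization (1528 of all 8987 genes lower) and 45 with set term and centring (1657 lower), where 256 were lower in the reported fit. In each setting 0 genes were higher. Leaving out 1 library gave 4 to 15. The count was 15 without WT sham 6 (394 of all genes lower) and 5 without WT sham 13 (172 lower). It was 4 without WT sham 15 (145 lower) and 5 without WT TAC 19 (162 lower). Both other pseudocounts, both other filters and robust eBayes kept all 9. For caPI3Kalpha sham against WT sham, leaving out 1 library gave 0 to 19, the 19 (11 higher, 8 lower) without WT sham 6, where 1041 of all genes were higher and 783 lower. For caPI3Kalpha TAC against WT TAC it gave 0 to 20, with 10 higher without WT sham 6 (340 of all genes higher, 1572 lower) and 20 (15 higher, 5 lower) without WT TAC 1 (745 higher, 2524 lower). That comparison gave 1 higher when centred (130 of all genes higher). It gave 1 higher with set term and quantile normalization (185 higher) and 10 higher with set term and centring (345 higher). For load in caPI3Kalpha hearts set term and quantile normalization gave 1 lower (52 of all genes lower). For the interaction set term and centring gave 7 higher (208 of all genes higher). Atp5s, at -0.37 in caPI3Kalpha TAC against WT TAC, turned to 0.40 with set term and quantile normalization and 0.41 with set term and centring, both past the threshold. The cause of these changes was not tested. Without WT sham 6 the unloaded genotypes, and without WT TAC 1 the loaded genotypes, come from different library sets. Genotype and set cannot be told apart in those comparisons. No paired analysis was possible because the mRNA groups share no animal numbers. Each caPI3Kalpha group has 2 libraries, and the depth behind RPKM is unknown, so small differences between genotypes may go undetected.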
